A study of Homo sapiens with 24 samples.

Results

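The 39 G2/M, spindle and kinetochore genes described here were chosen by name, as genes known to act in mitotic entry, spindle assembly, kinetochore function and cytokinesis. The rule itself uses names and no measured value, but the choice was made with earlier results of these data known. All 39 were found by Ensembl identifier among the 60675 genes of the expected-count table and all 39 were tested in every comparison. SW1783 is an established human astrocytoma cell line. Its cells received a hot water extract of Schisandrae Fructus (WESF) at 20, 100 or 500 µg/mL in batch A, or a 70% ethanol extract of it (EESF) at 12.4, 62 or 310 µg/mL in batch B, and RNA was collected after 24 h. Each batch had a vehicle group of PBS with 0.1% DMSO, here vehicle A and vehicle B, and each of the 8 groups had 3 libraries. The doses were labelled low, medium and high, and in the methods the high dose of WESF was chosen as not toxic and that of EESF as mildly cytotoxic. The extracts differed in batch and in dose, so extract and batch cannot be told apart. Library totals ran from 26447834 to 28461841 expected counts with vehicle A, from 20731749 to 24692309 with high WESF, from 18727797 to 20465712 with vehicle B and from 29659110 to 32567395 with high EESF, so that in both batches the depth of the high-dose libraries did not overlap that of their vehicle.

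Genes of this kind are transcribed late in the cell cycle. CDK1 with its cyclins starts mitosis, polo-like and Aurora kinases build the spindle, kinetochores attach chromosomes to microtubules, and a checkpoint holds back the anaphase-promoting complex until every chromosome is attached. The DREAM complex represses many of their promoters in resting cells and complexes holding B-MYB or FOXM1 activate them in G2, through a CHR element (cell cycle genes homology region), often with CCAAT boxes bound by NF-Y. In bulk RNA, more cells in G2 and mitosis and more of each RNA per cell cannot be told apart.

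Promoters of these genes are shown because they share sequence features that had no part in the choice of genes. The RefSeq table (GRCh38.p14) held a promoter for 33 of the 39 genes and none for AURKA, BIRC5, FOXM1, TPX2, TTK and UBE2C. In the 250 bases upstream of the start, searched on both strands, a CHR match (TTTGAA or TTCGAA) was found in 19 of the 33 (57.6%), against 14.3% of all 35116 promoters of the table and 9.13% of the 10638 promoters of genes tested at the high dose of WESF. A CCAAT match was in 28 of the 33 (84.8%), against 32% and 35.2%, and 19 (57.6%) held more than 1 such match, against 9.53% and 13.2%. Both matches stood together in 18 (54.5%), against 5.05% and 3.8%. An E2F match (TTTCGCGC or TTTGGCGC) was in 2 (6.06%), against 0.968% and 1.75%. Among 30 promoters of replication and G1/S genes, 2 (6.67%) held the CHR match, 17 (56.7%) the CCAAT match and 3 (10%) the E2F match. A match is a run of letters and not a shown binding site, and none of the 3 motifs holds another. The following stretches, written 5′ to 3′ on the strand of the gene, run from 10 bases before the first match (or from the edge of the window) towards the start of the canonical transcript and stop before the first base that is exonic in any GENCODE v44 transcript, with the matches in capitals (ATTGG and TTCAAA are the searched letters on the other strand). Of the 18 genes with both matches, 8 had both within a stretch free of exons, and the 5 of these with the largest change at the high dose of WESF are shown after CCNB1, which has CCAAT matches alone. This choice was made after the values were seen.
CCNB1 (chr5:69167053-69167134, plus strand): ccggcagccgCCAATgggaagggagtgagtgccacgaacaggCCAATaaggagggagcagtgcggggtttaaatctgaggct
DLGAP5 (chr14:55191609-55191733, minus strand): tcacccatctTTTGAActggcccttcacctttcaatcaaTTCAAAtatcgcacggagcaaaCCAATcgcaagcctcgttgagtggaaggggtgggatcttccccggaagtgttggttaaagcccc
CCNB2 (chr15:59104896-59105125, plus strand): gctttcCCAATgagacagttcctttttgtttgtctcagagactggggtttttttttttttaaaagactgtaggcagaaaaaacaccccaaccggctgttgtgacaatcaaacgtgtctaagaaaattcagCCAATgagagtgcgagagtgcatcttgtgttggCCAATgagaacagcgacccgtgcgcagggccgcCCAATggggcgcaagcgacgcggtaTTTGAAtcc
ECT2 (chr3:172750601-172750681, plus strand): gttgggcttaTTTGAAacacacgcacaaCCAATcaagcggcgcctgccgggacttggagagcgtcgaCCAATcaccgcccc
TOP2A (chr17:40417897-40418146, minus strand): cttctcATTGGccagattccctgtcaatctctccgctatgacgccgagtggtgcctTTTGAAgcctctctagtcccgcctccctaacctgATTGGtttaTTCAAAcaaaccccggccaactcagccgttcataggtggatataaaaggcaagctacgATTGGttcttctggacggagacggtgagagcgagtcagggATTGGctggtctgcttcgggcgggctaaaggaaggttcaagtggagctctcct
ASPM (chr1:197146695-197146813, minus strand): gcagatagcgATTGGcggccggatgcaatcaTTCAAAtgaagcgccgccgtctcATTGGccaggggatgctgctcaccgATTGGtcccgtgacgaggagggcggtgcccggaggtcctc
CDK1, PLK1 and CDC25C, not shown because annotated exons overlap the stretch from their matches to the start, held both matches too. In CDK1 a CHR match lay 69 to 64 bases before the start and another 13 to 8, with CCAAT matches at 78 to 74 and 46 to 42 and the E2F match at 128 to 121. In PLK1 the CHR match lay 29 to 24 bases before the start and the CCAAT match at 73 to 69, and in CDC25C they lay at 30 to 25 and 85 to 81. CCNB2 had 4 CCAAT matches and a CHR match at 29 to 24. The CCNB1 window held CCAAT matches at 87 to 83 and 55 to 51 and none of the CHR letters. With 500 µg/mL WESF the 18 genes with both matches had a median log2 fold change of 0.32 (range -0.21 to 0.68) and the 15 without both one of 0.42 (range -0.069 to 0.91).

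Without any extract the genes were well detected. Per kilobase of canonical transcript, the level with vehicle A was highest for PTTG1 (169 CPM per kb), CDC20 (142), UBE2C (93.6) and CCNB1 (88.9), and lowest for SPC25 (6.95), CENPE (7.24) and MAD2L1 (8.36). TOP2A, the topoisomerase that untangles sister chromatids, gave the most reads in all 24 libraries. The coefficient of variation between the 3 libraries of a group had a median over the 39 genes of 2.59% with vehicle A, 3.54% with high WESF, 3.20% with vehicle B and 3.79% with high EESF. Counts of FOXM1, PRC1, KIF23 and CCNA2 were not whole in any library, which means that some of their reads were divided between genes. FOXM1 shares 782 bases of exon with ITFG2 (483 counts in the mean library, FOXM1 5022), CCNA2 254 with EXOSC9 (893 and 2171), CDC25C 293 with FAM53C, KIF20A 132 with BRD8 and 74 with CDC23, NUSAP1 352 with OIP5 and KIF4A 77 with PDZD11, each on the opposite strand, and the strand setting of the counting was not given in the sources used here. CENPA shares 138 bases with SLC35F6 and NUSAP1 195 with OIP5-AS1 on the same strand, so the values of these 7 genes may be uncertain to that extent. For CENPA, NUSAP1 and KIF20A, whose counts were whole in every library, no divided reads were seen. The values of PRC1 and KIF23, with counts not whole in any library, are uncertain too. PLK1, BUB1B, NUF2, KIF23, KIF2C, PRC1 and HMMR share exon bases with genes of the table that had at most 27.7 counts in the mean library.

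With high WESF, 30 of the 39 genes rose, FOXM1 fell and 8 did not pass the test (adjusted p under 0.05), where 68.9% of all 13129 genes tested passed, 34.3% higher and 34.6% lower. The largest rises were those of MAD2L1 (0.91 on the log2 scale), BUB1 (0.83), CCNA2 (0.81), KIF2C (0.76) and UBE2C (0.76). At the high dose of EESF, 23 rose, 4 fell and 12 did not pass, where 58% of 13092 genes passed, 29.3% higher and 28.7% lower. There PTTG1 (0.76), AURKB (0.76), CDC25C (0.64), UBE2C (0.62) and MAD2L1 (0.54) led. The median log2 fold change was 0.38 over the 39 genes and 0.00082 over all genes with WESF, and 0.20 and 0.007 with EESF. Genes past both thresholds of a differentially expressed gene (DEG, also beyond 1.5-fold) numbered 10 with WESF, all higher, beside 11.1% of all genes higher, and were CCNA2, CCNB2, CDC25C, AURKB, BUB1, MAD2L1, UBE2C, PTTG1, KIF2C and DLGAP5. With EESF they numbered 4, CDC25C, AURKB, UBE2C and PTTG1, all higher, beside 8.21% of all genes. After the length and GC trend described further on, AURKB (0.556) and UBE2C (0.479) lay below the 1.5-fold threshold of 0.585 with EESF. CDC25C (0.593) and PTTG1 (0.666) stayed above it, and MAD2L1, not a DEG there, had 0.72. These values have no test. All 3 libraries lay above all 3 of the vehicle for 33 genes with WESF (35.9% of all genes) and below them for 2 (35.6%), and for 27 (31.6%) and 5 (31.2%) with EESF.

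The summed level of the 39 genes was 4396 ± 75.6 CPM (SD, n = 3) with vehicle A, 4371 ± 83.0 with low, 4535 ± 62.4 with medium and 5458 ± 90.5 with high WESF. In batch B it was 4371 ± 69.0 with vehicle B, 4249 ± 27.6 with low, 4332 ± 42.2 with medium and 4859 ± 42.1 with high EESF. The high-dose libraries stood above all others of their batch in this sum. Thinned to the smallest library total of 18138363 counts over protein-coding genes, 31 of the 39 genes were called with high WESF and 28 with high EESF, CENPE being the gene gained. The mitochondrial share of counts was 10.4% ± 0.13 with vehicle A and 8.65% ± 0.91 with high WESF, and 11.8% ± 0.16 with vehicle B and 11.5% ± 0.39 with high EESF. The part of that share in the results was not tested.

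**Figure D1:**
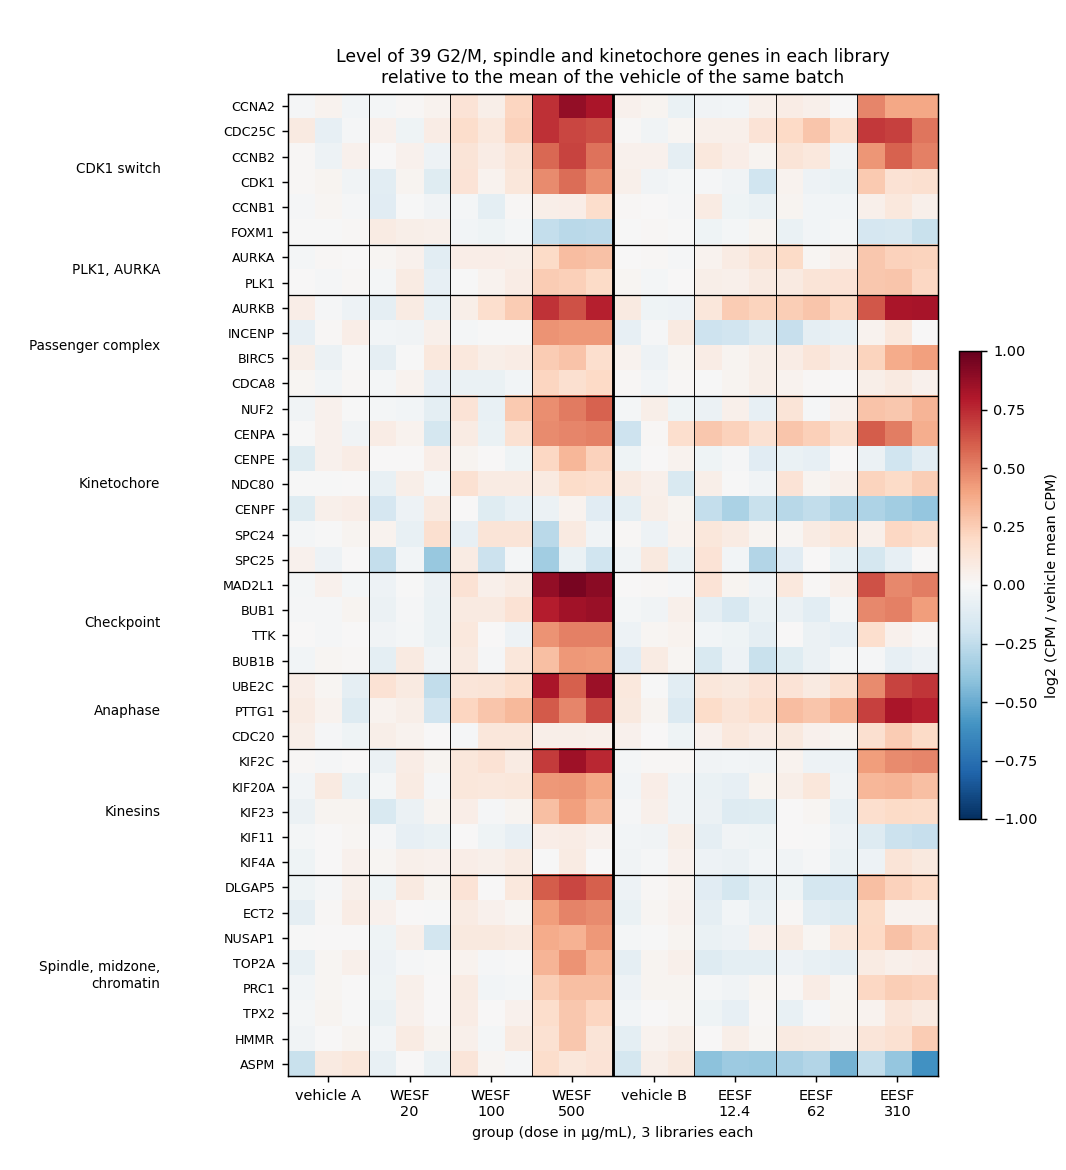
Each row is one of the 39 genes, grouped by role, and each column a library, in groups of 3 by dose (µg/mL). Colour gives log2 of the CPM over the mean CPM of the vehicle of the same batch, red above and blue below. The 3 high-dose columns of each batch are red in most rows, and with EESF the rows of ASPM and CENPF are blue at all 3 doses.

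The counts by role that follow, in groups of 2 to 8 genes, stand beside 34.3% of all genes higher and 34.6% lower with high WESF and 29.3% higher and 28.7% lower with high EESF, and in groups this small a share is only a description. The CDK1 switch comprised 6 genes, of which 4 rose and 1 fell at the high dose of either extract. Positions are on GRCh38, and where a pair of log2 fold changes is given for a gene, the first is for high WESF and the second for high EESF. CCNA2 (chr4:121816444-121823883, minus strand) encodes cyclin A2, a partner of CDK1 and CDK2. CCNA2 was at 75.7, 78.2 and 75.1 CPM with vehicle A, 75.1, 77 and 78 with low, 83.7, 79.3 and 88.4 with medium and 127, 140.0 and 135 with high WESF. It was at 79.6, 79 and 73.8 CPM with vehicle B, 75.4, 75.8 and 80.2 with low, 81.7, 80.3 and 77.5 with medium and 109, 101 and 101 with high EESF. The high-dose libraries of each batch lay above all others, and the log2 fold change was 0.81 ± 0.048 (SE, adjusted p = 1.81e-10) with WESF, 1.75-fold, and 0.42 ± 0.054 (SE, adjusted p = 3.43e-05) with EESF, 1.34-fold. CDK1 (chr10:60778331-60794852, plus strand) is the kinase itself. CDK1 was at 61.1, 62 and 59.2 CPM with vehicle A, 56.5, 61.9 and 55.8 with low, 66.9, 62.1 and 65.7 with medium and 84.5, 89.6 and 84 with high WESF. It was at 63.9, 60.1 and 61 CPM with vehicle B, 61.2, 60.2 and 53.7 with low, 63.3, 59.4 and 59 with medium and 74.1, 68.1 and 68.8 with high EESF. It rose by 0.50 ± 0.046 (SE, adjusted p = 4.78e-08) with high WESF and by 0.19 ± 0.055 (SE, adjusted p = 0.0105) with high EESF, and the latter call was lost without vehicle B replicate 2 (adjusted p = 0.0717). CCNB1 (chr5:69167135-69178245, plus strand), the mitotic cyclin B1, had the log2 fold change nearest 0 in the group at both high doses. CCNB1 was at 179, 183 and 179 CPM with vehicle A, 167, 179.6 and 176 with low, 178, 168 and 182 with medium and 187, 188 and 204 with high WESF. It was at 174, 173 and 171 CPM with vehicle B, 182, 168 and 165 with low, 176, 169 and 169.7 with medium and 179, 186 and 179 with high EESF. Its log2 fold change was 0.099 ± 0.045 with WESF (adjusted p = 0.0618, 95% interval 0.0033 to 0.19) and 0.068 ± 0.047 with EESF (adjusted p = 0.235, interval -0.035 to 0.17), neither past the threshold. CCNB2, the other B-type cyclin here, rose by 0.60 and 0.51, and CDC25C, the phosphatase that activates CDK1, by 0.68 and 0.64. FOXM1 (chr12:2857680-2877174, minus strand), a transcription factor of G2/M genes, moved the other way. FOXM1 was at 209.7, 209.7 and 212 CPM with vehicle A, 223, 219 and 218 with low, 207, 205 and 207 with medium and 178, 175 and 176 with high WESF. It was at 215, 217 and 216 CPM with vehicle B, 209.7, 213 and 220.2 with low, 206, 211 and 213 with medium and 193, 193 and 185 with high EESF. It changed by -0.26 ± 0.041 (SE, adjusted p = 2.85e-05) with WESF and -0.18 ± 0.047 (SE, adjusted p = 0.00548) with EESF, and it is the gene called lower with both.

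PLK1 and AURKA, kinases of centrosome maturation and spindle assembly, both rose with both extracts. PLK1 (chr16:23677656-23690367, plus strand) was at 153, 151 and 153 CPM with vehicle A, 150.4, 161 and 144 with low, 152, 156 and 160.5 with medium and 181, 180.1 and 174 with high WESF. It was at 156, 152 and 154 CPM with vehicle B, 161, 159 and 164 with low, 164, 168 and 169.5 with medium and 186, 187 and 178 with high EESF. The 3 high-dose libraries were above all others of their batch. The log2 fold change of PLK1 was 0.23 ± 0.042 (SE, adjusted p = 1.20e-04) with high WESF and 0.25 ± 0.048 (SE, adjusted p = 7.17e-04) with high EESF, with a difference of 0.026 ± 0.056 whose 95% interval was -0.091 to 0.14. After the length and GC trend described further on, PLK1 had 0.19 with WESF, 0.079 with EESF and a difference of -0.11, with no test. AURKA (chr20:56369389-56392337, minus strand) was at 117, 119 and 119 CPM with vehicle A, 119.6, 122 and 110.0 with low, 124, 124 and 123 with medium and 135, 146 and 145 with high WESF. It was at 122, 122 and 121 CPM with vehicle B, 124, 129 and 133 with low, 138, 123 and 126 with medium and 147, 142 and 142 with high EESF. AURKA rose by 0.26 ± 0.045 (SE, adjusted p = 5.65e-05) and by 0.24 ± 0.047 (SE, adjusted p = 9.17e-04).

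In the chromosomal passenger complex, which corrects faulty attachments and drives cytokinesis, all 4 genes rose with high WESF and 2 of the 4 with high EESF. AURKB (chr17:8204733-8210600, minus strand), its kinase, had the largest change of the group. AURKB was at 43.6, 41.3 and 40.3 CPM with vehicle A, 39.2, 44.2 and 39.6 with low, 43.6, 47 and 49.9 with medium and 68.9, 64.8 and 71.8 with high WESF. It was at 42.5, 39 and 38.6 CPM with vehicle B, 43.3, 47.6 and 46.8 with low, 47.5, 48.6 and 46.2 with medium and 61.7, 70.6 and 70.8 with high EESF. High-dose libraries lay above all others in both batches, with log2 fold changes of 0.71 ± 0.052 (SE, adjusted p = 2.64e-09) and 0.76 ± 0.069 (SE, adjusted p = 2.14e-06). CDCA8 (chr1:37692481-37709719, plus strand), or borealin, a scaffold subunit, changed least with high WESF. CDCA8 was at 78.3, 75.7 and 78 CPM with vehicle A, 76.2, 79.2 and 73 with low, 73.7, 73.8 and 75.7 with medium and 89.5, 86.3 and 88.9 with high WESF. It was at 82, 79.7 and 82.2 CPM with vehicle B, 81.2, 83.1 and 84.9 with low, 83.1, 82.2 and 81.4 with medium and 84.6, 86.5 and 83.8 with high EESF. It rose by 0.19 ± 0.044 (SE, adjusted p = 9.20e-04) with WESF and had 0.063 ± 0.050 with EESF (adjusted p = 0.295). BIRC5, or survivin, rose by 0.24 and 0.34. INCENP, the scaffold that activates AURKB, rose by 0.44 with WESF and had 0.050 with EESF (adjusted p = 0.498).

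Of 7 kinetochore genes, 4 (57.1%) rose with high WESF, and 3 (42.9%) rose and 1 (14.3%) fell with high EESF, beside 34.3% of all genes higher with WESF and 29.3% higher and 28.7% lower with EESF. NUF2 (chr1:163266576-163355764, plus strand) belongs to the NDC80 complex, which grips microtubules. NUF2 was at 25.9, 27.4 and 26.5 CPM with vehicle A, 26.3, 26.1 and 24.8 with low, 29.3, 25.3 and 31.9 with medium and 36.8, 38.1 and 39.98 with high WESF. It was at 25.7, 27.1 and 25.3 CPM with vehicle B, 25, 27 and 24.6 with low, 28.5, 25.9 and 26.8 with medium and 31.8, 31.4 and 33 with high EESF. It rose by 0.52 ± 0.055 (SE, adjusted p = 2.59e-07) with WESF and by 0.30 ± 0.060 (SE, adjusted p = 0.00104) with EESF. CENPF (chr1:214603185-214664574, plus strand), a very large coiled-coil protein of the outer kinetochore, was called higher with neither extract. CENPF was at 272, 308 and 310.4 CPM with vehicle A, 265, 287 and 316 with low, 297, 273 and 283 with medium and 286, 304 and 275 with high WESF. It was at 267, 297 and 291 CPM with vehicle B, 242, 228 and 244 with low, 235, 240.4 and 231 with medium and 230.4, 224 and 218 with high EESF. With EESF every library of the 3 doses lay below every vehicle B library, at -0.35 ± 0.055 (SE, adjusted p = 1.84e-04) for the high dose, and with high WESF it was -0.045 ± 0.054 (adjusted p = 0.472). After the length and GC trend described further on, CENPF had -0.066 with high EESF and 0.031 with high WESF, with no test. CENPF was called lower with high WESF once vehicle A replicate 1 was left out (-0.11, adjusted p = 0.0382). Among the other subunits of the NDC80 complex, NDC80 itself rose by 0.15 and 0.22, while SPC24 had -0.069 and 0.14 and SPC25 -0.21 and -0.082, none of these 4 values past the threshold. CENPA, the centromeric histone variant, rose by 0.49 and 0.50. CENPE, a kinesin of the kinetochore, rose by 0.26 with WESF and had -0.12 with EESF (adjusted p = 0.0831).

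The spindle checkpoint genes all rose with high WESF (4 of 4), and 2 of 4 rose with high EESF. MAD2L1 (chr4:120055623-120066858, minus strand), the subunit that binds and inhibits CDC20, had the largest rise of all 39 genes with WESF. MAD2L1 was at 43, 44.9 and 43.2 CPM with vehicle A, 42.2, 43.6 and 42 with low, 48.4, 45.3 and 46.3 with medium and 80.4, 84.2 and 81.6 with high WESF. It was at 41, 41.2 and 40.5 CPM with vehicle B, 45, 41.6 and 39.8 with low, 44, 41.1 and 42.2 with medium and 63.5, 57.1 and 58.4 with high EESF. It rose by 0.91 ± 0.046 (SE, adjusted p = 2.91e-11), or 1.88-fold, with high WESF and by 0.54 ± 0.058 (SE, adjusted p = 7.57e-06), or 1.46-fold, with high EESF. BUB1B (chr15:40161023-40221123, plus strand), or BubR1, is its partner in the inhibitory complex. BUB1B was at 51.2, 52.8 and 52.6 CPM with vehicle A, 48.8, 55.7 and 51.1 with low, 55.7, 51.7 and 56.5 with medium and 64.3, 70.5 and 70.1 with high WESF. It was at 50.2, 57.6 and 55.2 CPM with vehicle B, 48.9, 52.4 and 46.6 with low, 50.02, 52.1 and 53.5 with medium and 53.9, 51.4 and 52.3 with high EESF. With WESF it rose by 0.39 ± 0.050 (SE, adjusted p = 2.55e-06), and with EESF the high-dose libraries overlapped the vehicle (-0.048 ± 0.062, adjusted p = 0.522). TTK (chr6:80003887-80042527, plus strand), or MPS1, is the kinase that starts the signal. TTK was at 68.9, 68.1 and 68.8 CPM with vehicle A, 67.1, 67.8 and 65.5 with low, 74, 68.7 and 66.2 with medium and 93.5, 97.3 and 97.1 with high WESF. It was at 66.1, 69.3 and 70.2 CPM with vehicle B, 67.3, 66.3 and 64.3 with low, 68.9, 65.8 and 64.7 with medium and 77.1, 70.8 and 69.1 with high EESF. It rose by 0.48 ± 0.043 (SE, adjusted p = 3.57e-08) with WESF, and with EESF the high-dose libraries overlapped the vehicle, at 0.077 ± 0.058 (adjusted p = 0.274). BUB1, the kinase that recruits the others, rose by 0.83 and 0.47.

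Of the 3 genes of anaphase onset, UBE2C and PTTG1 rose with both extracts and CDC20 with high EESF. UBE2C (chr20:45812576-45816957, plus strand) is the ubiquitin-conjugating enzyme of the anaphase-promoting complex. UBE2C was at 76.2, 73.7 and 68.3 CPM with vehicle A, 80.6, 77.4 and 61.3 with low, 79, 79.4 and 82.4 with medium and 128, 110.3 and 132 with high WESF. It was at 79.99, 74 and 69 CPM with vehicle B, 80.6, 79.3 and 81.8 with low, 82, 79 and 83.3 with medium and 103, 119 and 122 with high EESF. It rose by 0.76 ± 0.061 (SE, adjusted p = 9.52e-09) and 0.62 ± 0.074 (SE, adjusted p = 1.67e-05), with no overlap between high dose and vehicle in either batch. PTTG1 (chr5:160421855-160428739, plus strand), or securin, is the inhibitor that this complex destroys. PTTG1 was at 128, 124 and 111 CPM with vehicle A, 124, 126 and 106 with low, 141, 147 and 152 with medium and 185, 169.9 and 191 with high WESF. It was at 127, 121 and 108 CPM with vehicle B, 135, 129 and 133 with low, 146, 144 and 151 with medium and 190.1, 209 and 203 with high EESF. It had the largest rise with EESF, 0.76 ± 0.064 (SE, adjusted p = 1.24e-06), and 0.59 ± 0.056 (SE, adjusted p = 7.68e-08) with WESF. CDC20 (chr1:43358981-43363203, plus strand) activates the complex. CDC20 was at 244, 232 and 227 CPM with vehicle A, 244, 239.8 and 235 with low, 233, 254 and 254 with medium and 244, 244 and 243 with high WESF. It was at 235, 229 and 221 CPM with vehicle B, 234, 246 and 239.8 with low, 245, 235 and 232 with medium and 255, 272 and 261 with high EESF. With high EESF all 3 libraries lay above the vehicle and it rose by 0.20 ± 0.050 (SE, adjusted p = 0.00415), while with high WESF it was 0.058 ± 0.042 (adjusted p = 0.236). After the length and GC trend described further on, CDC20 had 0.020 with WESF, 0.0030 with EESF and a difference of -0.019, with no test. Before it, the difference between the extracts in CDC20 was 0.15 ± 0.060 (adjusted p = 0.0835).

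Among 5 mitotic kinesins, 3 rose with high WESF, and 3 rose and 1 fell with high EESF. KIF2C (chr1:44739818-44767767, plus strand), or MCAK, takes microtubules apart at their ends. KIF2C was at 83.2, 81.9 and 83.1 CPM with vehicle A, 79.5, 87.1 and 84.1 with low, 89.6, 91.2 and 87.7 with medium and 134, 149 and 139 with high WESF. It was at 79.1, 80.8 and 81 CPM with vehicle B, 78.4, 78.8 and 78.4 with low, 82.4, 77.7 and 77.5 with medium and 107, 112 and 113 with high EESF. It rose by 0.76 ± 0.047 (SE, adjusted p = 3.31e-10) and 0.46 ± 0.050 (SE, adjusted p = 8.99e-06). KIF4A (chrX:70290104-70420886, plus strand), a motor of chromosome arms and the midzone, had the log2 fold change nearest 0 of the 5 at both high doses. KIF4A was at 96.9, 100.1 and 103 CPM with vehicle A, 101, 104 and 103 with low, 105, 104 and 106 with medium and 99.9, 106 and 101 with high WESF. It was at 98.3, 99.8 and 104 CPM with vehicle B, 96.8, 96.4 and 98.7 with low, 98.1, 99.8 and 95.9 with medium and 97, 109.6 and 108 with high EESF. High-dose libraries overlapped the vehicle in both batches, with 0.028 ± 0.046 (95% interval -0.069 to 0.12) and 0.059 ± 0.059 (interval -0.070 to 0.19). KIF20A and KIF23, which act in cytokinesis, rose by 0.42 and 0.35 with WESF and by 0.32 and 0.18 with EESF. KIF11, or Eg5, which pushes spindle poles apart, had 0.061 with WESF (adjusted p = 0.208) and fell with EESF (-0.19, adjusted p = 0.00811). After the length and GC trend described further on, KIF11 had 0.095 with WESF and -0.029 with EESF, with no test.

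Of the 8 spindle, midzone and chromatin genes, 7 rose with high WESF, and 4 rose and 1 fell with high EESF. DLGAP5 (chr14:55148112-55191608, minus strand), or HURP, stabilises microtubules near chromosomes. DLGAP5 was at 93.4, 95.5 and 99.9 CPM with vehicle A, 93.4, 102 and 98 with low, 106, 96.5 and 104 with medium and 146, 153 and 145 with high WESF. It was at 96.2, 101 and 102 CPM with vehicle B, 92.2, 88.1 and 93.2 with low, 96.9, 88.4 and 88.8 with medium and 123, 117 and 114 with high EESF. It rose by 0.62 ± 0.045 (SE, adjusted p = 2.71e-09) and 0.24 ± 0.053 (SE, adjusted p = 0.00175). ASPM (chr1:197084121-197146694, minus strand) focuses microtubules at spindle poles and has the longest transcript of the 39. ASPM was at 128, 158 and 161 CPM with vehicle A, 142, 150.0 and 142 with low, 162, 151 and 148 with medium and 168, 162 and 164 with high WESF. It was at 133, 156 and 161 CPM with vehicle B, 113, 116 and 116 with low, 119.6, 123 and 108 with medium and 127, 115 and 98.5 with high EESF. With EESF the libraries of all 3 doses lay below every vehicle B library, and the log2 fold change at the high dose was -0.41 ± 0.090 (SE, adjusted p = 0.00201), while with high WESF it was 0.14 ± 0.067 (adjusted p = 0.0697). After the length and GC trend described further on, ASPM had -0.088 with high EESF and 0.21 with high WESF, with no test. Leaving out vehicle A replicate 2 or 3 brought the WESF value of 0.14 to 0.19 (adjusted p = 0.0417) or 0.20 (0.0138). Both of these fits keep vehicle A replicate 1, the lowest at 128 CPM. The other vehicle A libraries, at 158 and 161 CPM, lay near the high WESF libraries, at 162 to 168. The size of the WESF value thus rests largely on replicate 1. TOP2A rose by 0.38 with WESF and had 0.065 with EESF (adjusted p = 0.308). ECT2, which switches on RhoA for cytokinesis, rose by 0.46 with WESF and had 0.092 with EESF (adjusted p = 0.193), and TPX2, the activator of AURKA, rose by 0.22 with WESF and had 0.084 with EESF (adjusted p = 0.162). After the same trend the EESF values were 0.255 for TOP2A, 0.23 for ECT2 and 0.116 for TPX2, also with no test. NUSAP1 rose by 0.38 and 0.24, PRC1, which bundles midzone microtubules, by 0.28 and 0.23, and HMMR by 0.18 and 0.18.

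**Figure D2:**
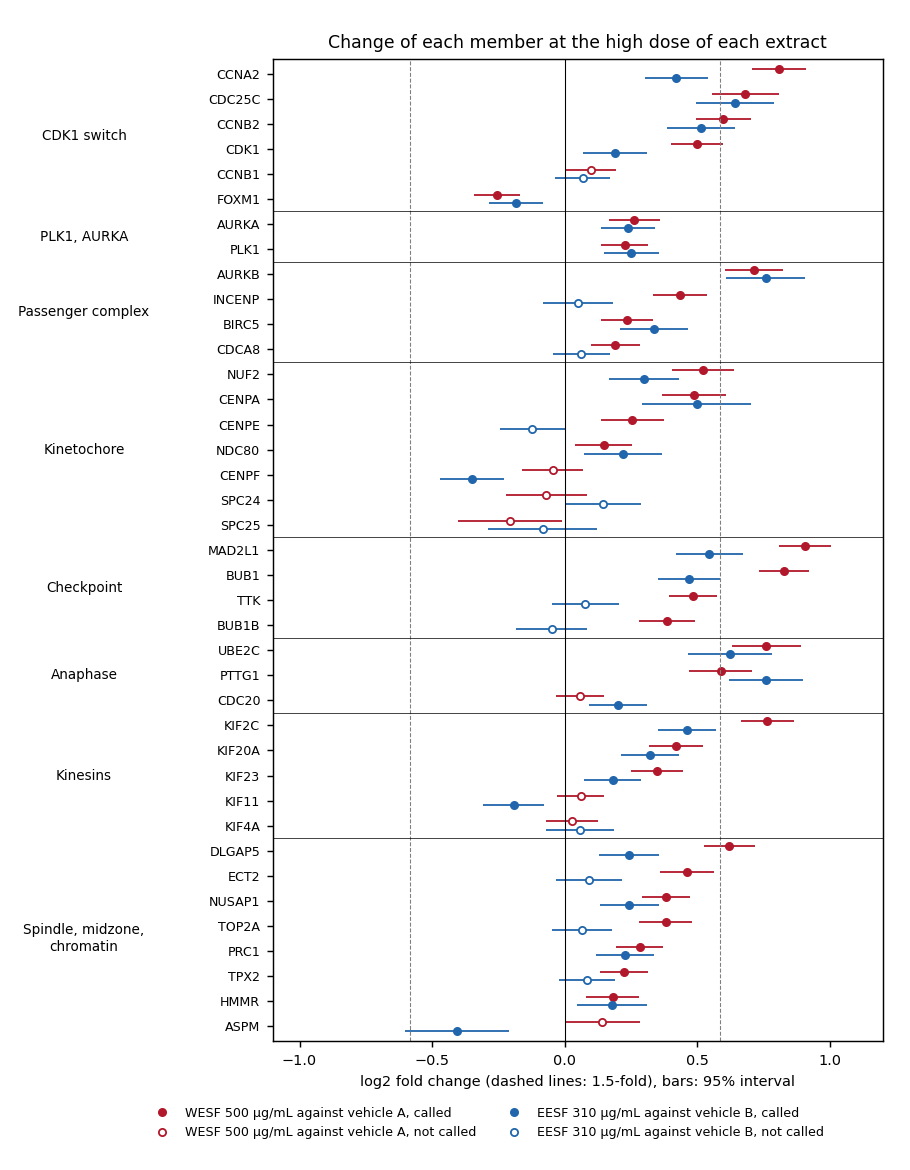
Log2 fold change of each gene at the high dose against its vehicle, WESF in red and EESF in blue, with 95% intervals, filled points called at adjusted p under 0.05 and dashed lines at 1.5-fold. Red points lie to the right of 0 for 35 genes and blue points for 32, and the blue points of ASPM and CENPF lie to the left of 0.

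Set side by side, 22 genes were called higher with both extracts at the high dose, FOXM1 lower with both, and none in opposite directions. TPX2, TTK, ECT2, TOP2A, CDCA8, CENPE, INCENP and BUB1B passed the test as higher with WESF alone, CDC20 with EESF alone, and ASPM, CENPF and KIF11 passed as lower with EESF alone. After a trend on transcript length and GC content over all genes was taken off, as described further on, the EESF value of CDC20 was 0.0030 and those of ASPM, CENPF and KIF11 were -0.088, -0.066 and -0.029, while among the genes called with WESF alone TOP2A had 0.255 and ECT2 0.23 with EESF. These values have no test. In the direct test of the difference between the extracts, TPX2 (-0.14, adjusted p = 0.0982), CDCA8 (-0.13, adjusted p = 0.116) and CDC20 (0.15, adjusted p = 0.0835) were not called, so a call with 1 extract alone does not show that these 3 genes differed between them. KIF4A, CCNB1, SPC24 and SPC25 passed with neither. Whether the responses differ was tested directly, as the EESF change minus the WESF change over the 12 libraries. This test took the libraries of vehicle A and vehicle B as independent. Same-numbered libraries of the 2 vehicles deviated together (r of deviations 0.358, 0.163 and 0.259), and no alternative paired them across batches. For the same reason, calls shared by both extracts do not rest on independent vehicles. The effect of this on the calls was not tested. Of the 39 genes, 16 were called, each with a lower value for EESF than for WESF, where 26% of 13376 genes were called, 13.3% lower and 12.7% higher. The 5 with the smallest p were TTK (-0.41 ± 0.068 SE, adjusted p = 7.12e-04), DLGAP5 (-0.38 ± 0.065 SE, adjusted p = 8.67e-04), BUB1 (-0.36 ± 0.062 SE, adjusted p = 9.75e-04), BUB1B (-0.43 ± 0.077 SE, adjusted p = 0.00111) and CCNA2 (-0.39 ± 0.070 SE, adjusted p = 0.00124). By role, all 4 checkpoint genes were among the 16, 4 of the 8 spindle genes, 3 of the 7 kinetochore genes, 2 of the 6 CDK1 switch genes, 2 of the 5 kinesins and 1 of the 4 passenger genes, and none of PLK1, AURKA and the 3 anaphase genes. For HMMR, whose rises were 0.18 and 0.18, the interval of the difference was -0.16 to 0.16, for AURKB it was -0.14 to 0.23 and for CDC25C -0.22 to 0.15. The doses were not matched (500 and 310 µg/mL) and the batches differed, so the part of extract, dose and batch in these differences cannot be told apart.

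At the medium doses few of the genes passed the test. With 100 µg/mL WESF, PTTG1 rose (0.27 ± 0.053 SE, adjusted p = 0.0132) and the other 38 were not called, where 4.1% of 13112 genes passed, 1.89% higher. An unadjusted p under 0.05 was reached by 11 genes (28.2%, beside 21% of all genes), the fold change was above 0 in 31 of 39, and all 3 libraries lay above the vehicle for 14 genes (12.2% of all genes). PTTG1 was not called without vehicle A replicate 2 or either of replicates 2 and 3 of the medium dose, and without vehicle A replicate 1 AURKB, CDC25C and UBE2C were called as well. With 62 µg/mL EESF, AURKB (0.25 ± 0.054 SE, adjusted p = 0.00682), CDC25C (0.22 ± 0.064 SE, adjusted p = 0.0315) and PTTG1 (0.31 ± 0.055 SE, adjusted p = 0.00178) rose, and ASPM (-0.36 ± 0.065 SE, adjusted p = 0.00227) and CENPF (-0.27 ± 0.049 SE, adjusted p = 0.00210) fell. In that comparison 15.4% of 12978 genes passed, 6.9% higher and 8.48% lower. There 10 of the 39 (25.6%) had an unadjusted p under 0.05, beside 30.4% of all genes. The fold change was above 0 in 20 of the 39 and below 0 in 19. Without vehicle B replicate 1, DLGAP5, INCENP and UBE2C were called too. No gene of the 39 passed 1.5-fold at a medium or low dose.

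At 20 µg/mL WESF none of the 39 genes passed the test and none had an unadjusted p under 0.05, where 0% of 13131 genes passed and 470 (3.58%) had such a p. DESeq2 called none of the 39 either. The log2 fold changes there ran from -0.20 for SPC25 to 0.067 for FOXM1. At 12.4 µg/mL EESF, ASPM (-0.39 ± 0.061 SE, adjusted p = 0.00301), CENPF (-0.27 ± 0.049 SE, adjusted p = 0.00623) and INCENP (-0.18 ± 0.052 SE, adjusted p = 0.0412) fell and AURKB rose (0.19 ± 0.054 SE, adjusted p = 0.0453), where 9.35% of 12892 genes passed, 6.24% lower and 3.11% higher. AURKB and INCENP lost their call whichever of the 3 low-dose libraries was left out, ASPM alone was called without vehicle B replicate 2, and 9 of the 39 were called without vehicle B replicate 1, BUB1B, DLGAP5, PTTG1, TOP2A and UBE2C being added. ASPM thus had -0.39, -0.36 and -0.41 at the low, medium and high dose of EESF, and CENPF -0.27, -0.27 and -0.35, in 3 comparisons that share the vehicle B libraries. After the length and GC trend described further on, ASPM had -0.235, -0.20 and -0.088 and CENPF -0.12, -0.12 and -0.066 at these doses, with no test. In the differences between the extracts none of the 39 was called at the medium dose (0.203% of 13276 genes, 5 of the 39 or 12.8% at an unadjusted p under 0.05 beside 1735 (13.1%) of all genes, 1 by DESeq2, ASPM) or at the low dose (0.00756% of 13221 genes, 6 of the 39 or 15.4% at an unadjusted p under 0.05 beside 1390 of all genes, none by DESeq2).

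**Figure D3:**
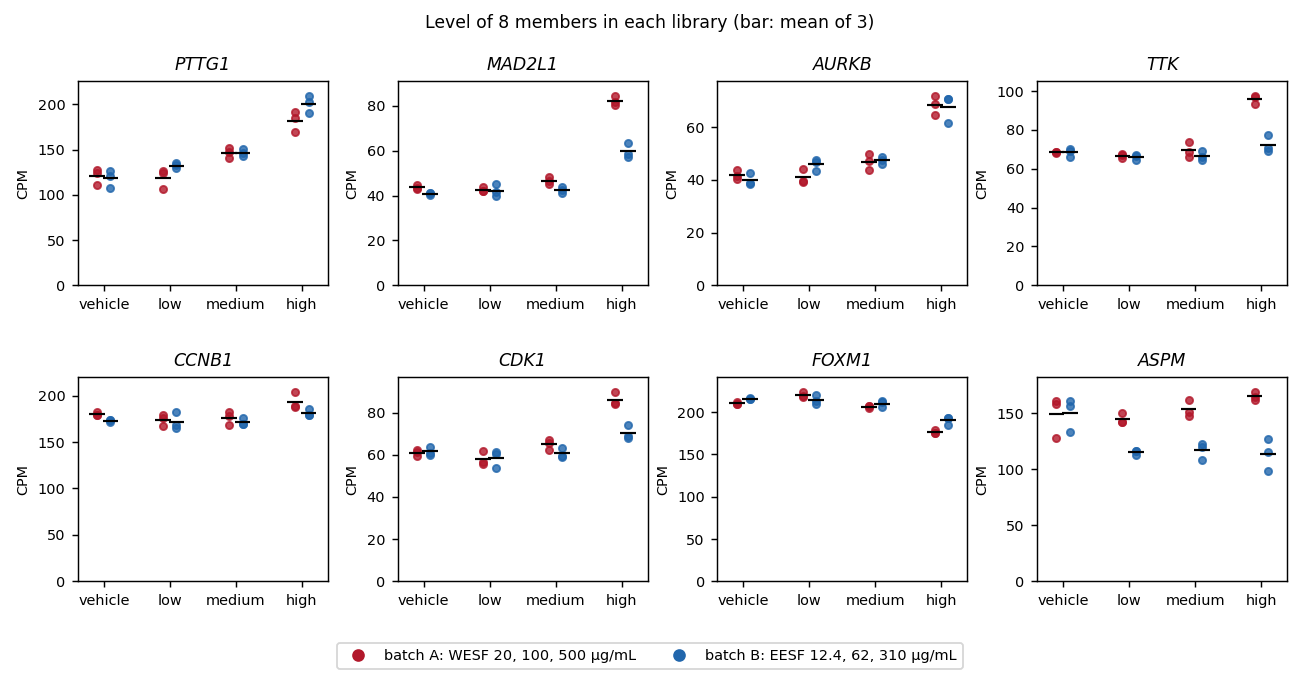
CPM of 8 genes in each library (points) with the mean of the 3 (bars), against dose, batch A in red and batch B in blue, chosen after their values were seen to show each pattern. MAD2L1 goes from 43, 44.9 and 43.2 to 80.4, 84.2 and 81.6 with high WESF, TTK is higher with high WESF, CCNB1 is not called at any dose, FOXM1 is lower at the high doses, and ASPM is lower at all 3 doses of EESF.

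Without extract, none of the 39 genes passed the test between vehicle B and vehicle A (0% of 13001 genes passed, 371 genes (2.85%) and none of the 39 had an unadjusted p under 0.05, and DESeq2 called none of the 39). Their log2 differences ran from -0.15 for SPC25 to 0.071 for CDCA8. Same-numbered vehicle libraries of the batches deviated together, and with the replicate number as a block KIF23 alone of the 39 passed, as lower with vehicle B (-0.093 without the block). Replicate 1 was the lowest of its vehicle group for ASPM, CENPF and MKI67 in both batches.

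Other genes of mitosis and of the cycle, from lists that do not hold the 39, were counted in the same way, beside the 34.3% of all genes higher and 34.6% lower with high WESF and the 29.3% higher and 28.7% lower with high EESF. Of 34 further spindle and cytokinesis genes, 27 rose (79.4%) and 3 fell (8.82%) with high WESF, and 20 rose (58.8%) and 4 fell (11.8%) with high EESF. HAUS6, an augmin subunit that nucleates spindle microtubules, was at 67.2, 72.1 and 75.2 CPM with vehicle A and 137, 144 and 143 with high WESF, and rose by 0.98 ± 0.050 (adjusted p = 2.84e-11). HAUS7 of the same complex rose by 0.79 ± 0.079 with high EESF, and NUMA1, a spindle pole protein, fell with WESF (-0.34 ± 0.043). MKI67, the Ki-67 antigen of cycling cells, was at 336, 380.1 and 396 CPM with vehicle A and 383, 404 and 381 with high WESF (0.070 ± 0.055, adjusted p = 0.270), and at 342, 408 and 411 CPM with vehicle B and 309.8, 309 and 245 with high EESF, where it fell (-0.43 ± 0.092, adjusted p = 0.00167). A value of MKI67 after the length and GC trend described further on is not given here. Of 17 genes of the anaphase-promoting complex and its enzymes, 8 rose (47.1%) and 5 fell (29.4%) with WESF and 6 rose (35.3%) and 3 fell (17.6%) with EESF. UBE2S, which extends the ubiquitin chains that UBE2C starts, rose by 0.93 ± 0.045 and 1.07 ± 0.081, while ANAPC15 fell with WESF (-0.59) and CDC27 with EESF (-0.32). Of 32 further kinetochore and centromere genes, 12 rose (37.5%) and 13 fell (40.6%) with WESF, shares near those of all genes. With EESF 11 rose (34.4%) and 13 fell (40.6%), beside 29.3% of all genes higher and 28.7% lower. HJURP, the chaperone that loads CENPA, rose by 0.93 ± 0.049 and 0.73 ± 0.057, ZWINT fell with WESF (-0.79) and NSL1 with EESF (-0.62). Of 20 condensin and cohesin genes, 9 rose (45%) and 4 fell (20%) with WESF and 3 rose (15%) and 10 fell (50%) with EESF, with CDCA5 (0.51) and STAG1 (-0.66) at the ends with WESF and SGO1 (0.48) and STAG1 (-0.63) with EESF. Over these 103 genes together, 56 rose (54.4%) and 25 fell (24.3%) with WESF and 40 rose (38.83%) and 30 fell (29.1%) with EESF. In the difference between the extracts 26 were lower (25.2%) and 7 higher (6.80%) with EESF, beside 13.3% and 12.7% of all genes.

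Among 23 regulators of mitotic entry and of the DREAM complex, 12 rose (52.2%) and 8 fell (34.8%) with high WESF, and 4 rose (17.4%) and 7 fell (30.4%) with high EESF. MYBL2, or B-MYB, was at 43.2, 41.5 and 44 CPM with vehicle A and 26.4, 26.3 and 25.4 with high WESF and fell with WESF (-0.72 ± 0.053, adjusted p = 2.78e-09) and with EESF (-0.38 ± 0.059, adjusted p = 1.49e-04). RBL1, the DREAM pocket protein also called p107, had the largest fall of the list with both (-0.85 and -1.09). E2F1, an activator of G1/S genes, fell with both (-0.50 and -0.16), and E2F7, a repressor of them, rose by 0.98 with WESF. CDKN1A, the CDK inhibitor of the p53 response, rose by 0.39 ± 0.071 with WESF (adjusted p = 1.24e-04) and had -0.031 ± 0.068 with EESF (adjusted p = 0.718). WEE1, the kinase that holds CDK1 inactive, rose by 0.26 ± 0.063 with WESF (adjusted p = 0.00141) and had 0.043 ± 0.057 with EESF (adjusted p = 0.539). GADD45A, which can restrain CDK1, rose by 0.77 with EESF. Of 34 replication and G1/S genes, 3 rose (8.82%) and 26 fell (76.5%) with WESF, and 2 rose (5.88%) and 26 fell (76.5%) with EESF. MCM3, a subunit of the replicative helicase, had 133, 127 and 127 CPM with vehicle A and 45.9, 49.7 and 46.1 with high WESF (-1.46 ± 0.048), and CCNE2, or cyclin E2, 22.9, 20.2 and 21.3 CPM with vehicle B and 11.8, 11.6 and 10.6 with high EESF (-0.93 ± 0.076). The largest rises of that list were 0.25 for DBF4 with WESF and 0.19 for RFC4 with EESF.

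**Figure D4:**
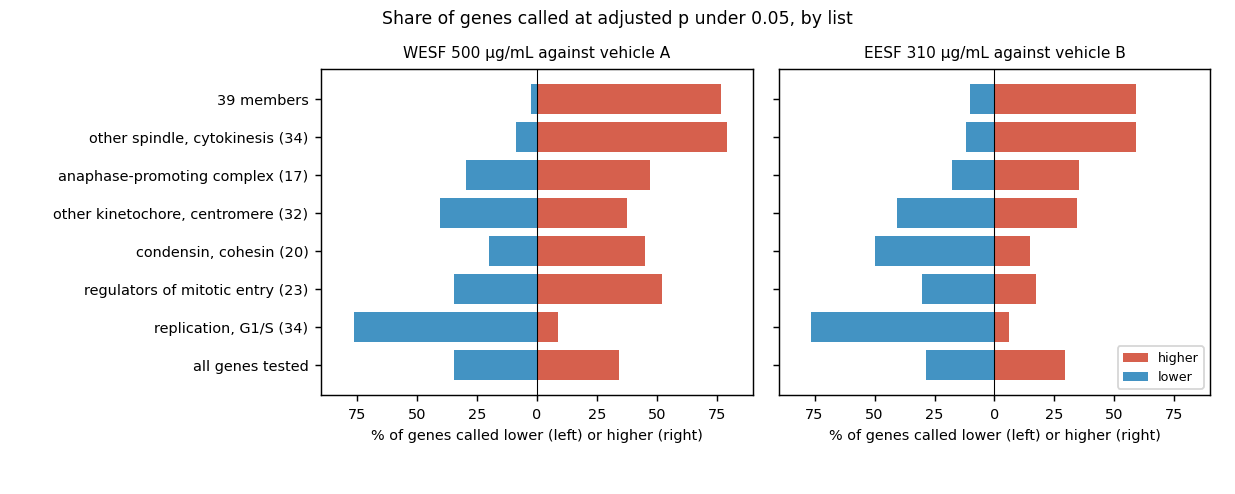
Share of genes called at adjusted p under 0.05 at the high dose, higher to the right and lower to the left (% of the genes of each list), for the 39 genes, 4 other mitotic lists, regulators, replication genes and all genes tested. The 39 genes have 30 higher and 1 lower with WESF and 23 higher and 4 lower with EESF, and the replication genes 26 lower with each extract.

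Transcript length moved with the change in batch B. Across the 39 genes, which are not independent replicates, Pearson's r between log10 length of the canonical transcript and log2 fold change was -0.78 at the medium, -0.77 at the low and -0.70 at the high dose of EESF, beside -0.39, -0.41 and -0.25 over all genes tested. With WESF it was 0.11 at the low, -0.54 at the medium and -0.23 at the high dose, beside -0.025, -0.17 and -0.033. ASPM (10863 bases), CENPF (10290) and CENPE (8541) had a median of -0.35 with high EESF, where all genes of at least 8000 bases had -0.25, and the 6 genes under 1500 bases had 0.57, where all genes of that length had 0.14. Transcripts of at least 8000 bases took 10.6% ± 0.58 of CPM with vehicle B and 9.41% ± 0.14, 9.12% ± 0.23 and 8.79% ± 0.49 with low, medium and high EESF, and 10.7% ± 0.59 with vehicle A and 10.6% ± 0.14 with high WESF. A loess trend of the log2 fold change on length and GC content over all genes was then taken off, an alternative chosen after the data were seen, and 36 of the 39 genes lay above it with high WESF (median 0.39) and 32 with high EESF (0.23), and 31 lay below it in the difference between the extracts (median -0.135). None of the 31 genes called with high WESF moved by over 1.5 times. Of the 27 called with high EESF, 5 did, ASPM from -0.41 to -0.088, CENPF from -0.35 to -0.066, KIF11 from -0.19 to -0.029, CDC20 from 0.20 to 0.0030 and PLK1 from 0.25 to 0.079. The 12 genes not called there had -0.127 (SPC25) to 0.255 (TOP2A, from 0.065) after the trend, with ECT2 going from 0.092 to 0.23 and CENPE from -0.12 to 0.157. At the low dose of EESF 3 of the 4 called genes moved as much, ASPM to -0.24, CENPF to -0.12 and AURKB from 0.19 to 0.079, and at the medium dose 3 of 5, ASPM to -0.20, CENPF to -0.12 and AURKB from 0.25 to 0.115. In the difference between the extracts 6 of 16 did, ASPM from -0.55 to -0.29, CENPE from -0.38 to -0.14, CENPF from -0.30 to -0.080, KIF11 from -0.25 to -0.13, TOP2A from -0.31 to -0.17 and MAD2L1 from -0.36 to -0.22. The values after the trend have no test of their own.

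**Figure D5:**
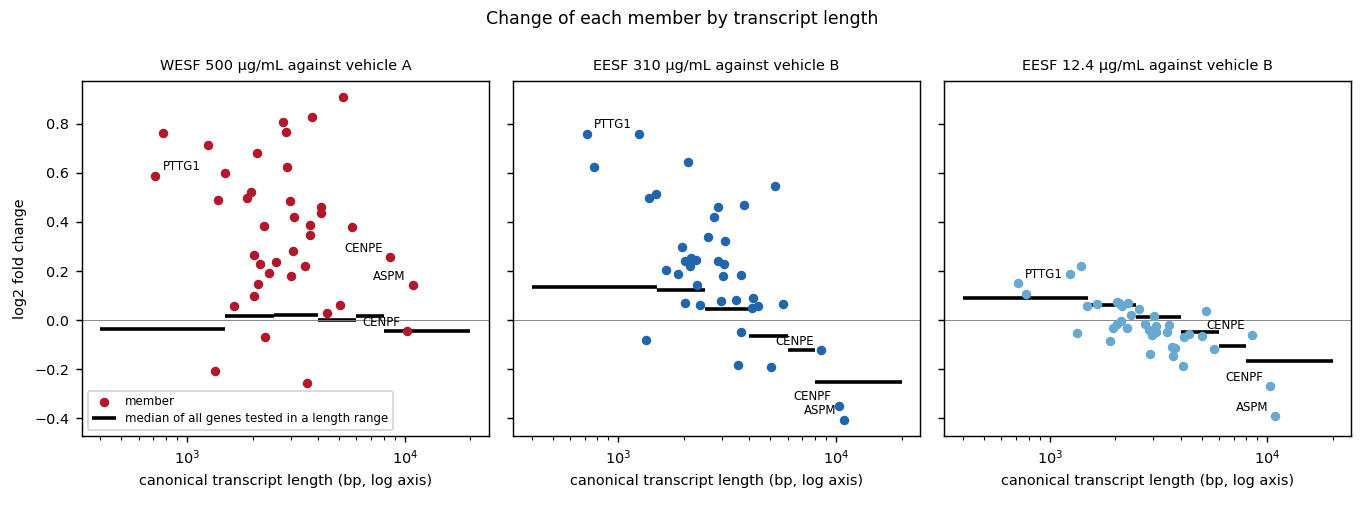
Log2 fold change of each of the 39 genes (points) against the length of its canonical transcript (log axis, bases) at the high dose of WESF and the high and low doses of EESF, with black lines for the median of all genes tested in each length range. With EESF the points and the lines fall to the right, and ASPM and CENPF are among the lowest points.

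The label of the cells was set against marker genes. Of 12 astrocyte and glial markers, 7 were under 1 CPM in every group, among them GFAP (0.221, 0.109 and 0.117 CPM with vehicle A), S100B, SOX2, ALDH1L1 and AQP4, and AQP4 was at 0 in all vehicle A libraries, so the defining astrocyte markers were near absent, while SLC1A3 (31, 33.7 and 30.6 CPM) and SOX9 (76.6, 84.7 and 83.7) were detected. VIM, an intermediate filament of astrocytes and mesenchymal cells, made up most of the sum of the list, which was 5010, 4924 and 4951 CPM with vehicle A, 4987, 4791 and 4843 with high WESF, 5078, 5057 and 5061 with vehicle B and 5134, 5486 and 5452 with high EESF. All 6 mesenchymal markers were above 1 CPM, FN1 and COL1A1 being the most abundant. Their sum was 10640, 11120 and 10910 CPM with vehicle A, 10290, 9809 and 10040 with high WESF, 10640, 11090 and 10860 with vehicle B and 9395, 9301 and 8998 with high EESF. The 5 neuron markers, led by TUBB3, summed to 166, 166 and 163 CPM with vehicle A and 80.0, 87.1 and 79.4 with high WESF, and to 166, 172 and 164 with vehicle B and 99.8, 109 and 109 with high EESF. The 5 leukocyte and microglia markers, led by PTPRC with AIF1 at 0 in both vehicles, summed to 13.6, 14.5 and 14.2 CPM with vehicle A, 3.47, 3.70 and 3.81 with high WESF, 12.7, 13.9 and 13.8 with vehicle B and 3.75, 4.28 and 3.52 with high EESF. The 5 epithelial and endothelial markers, nearly all KRT18, summed to 134, 122 and 120.2 CPM with vehicle A, 44.6, 49.96 and 46.6 with high WESF, 121, 119 and 110.5 with vehicle B and 62.7, 81.0 and 77.4 with high EESF. The mesenchymal, neuron, leukocyte and epithelial sums of the high-dose libraries thus lay below every vehicle library of their batch, where most of the 39 genes were higher. The mesenchymal sum was also below vehicle B (mean 10860) at the low and medium doses of EESF (means 9563 and 9722), where few of the 39 genes were called. FN1 had the largest fall in CPM there, from a mean of 4627 to 3675 and 3524. COL1A1 went from 3797 to 3555 and 3830, COL1A2 from 1790 to 1656 and 1700, and THY1 rose from 514 to 547 and 546. Members of the mesenchymal list also went both ways with high WESF, COL1A2 rising from a mean of 1816 to 2121 CPM, FN1 at 4634 and 4586 and not called, and COL1A1, COL3A1, ACTA2 and THY1 called lower. Among the detected glial markers besides VIM, SLC1A3 fell from a mean of 31.8 to 10.35 CPM with high WESF and from 31.8 to 12.1 with high EESF, SOX9 from 81.7 to 50.7 and from 86.1 to 48.7, and PDGFRA from 20.2 to 12.8 and from 19.2 to 12.7, each called lower by the test. The part of these markers in the result was not tested.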

How the data were processed

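RNA of 24 samples of SW1783 cells was sequenced. Per the methods of the study, reads were trimmed (Trim Galore 0.6.6), aligned to GRCh38 (STAR 2.7.9a) and counted (RSEM 1.3.3). The values deposited by the authors are expected counts per gene, not normalized, and 10.85% of them are not whole. They were rounded, restricted to protein-coding genes of GENCODE v44, filtered (filterByExpr), scaled by TMM and tested with edgeR 4.0.16 (quasi-likelihood, 2-sided, R 4.3.3) on the libraries of each comparison, with Benjamini-Hochberg adjustment over all genes tested. Levels are CPM scaled over all 24 libraries, and SE is the log2 fold change divided by the square root of F. The labels do not say that libraries of a group came from separate cultures, so p-values measure the spread between libraries, which may be technical. Libraries of a group differed by more than sampling noise (chi-square per degree of freedom 2.02 to 15.5).

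The genes and lists were chosen with earlier results of these data known. Genes given by library are those with the largest and smallest change at the high dose of WESF in each of 8 role groups, with CCNB1, CDK1 and PLK1, and, after their values were seen, FOXM1, PTTG1 and TTK. Named at the lower doses are the genes called, in the difference between extracts the 5 with the smallest p, and of each further list the largest rise and fall, with CDKN1A, WEE1, MYBL2, MKI67 and E2F1. Alternatives were DESeq2 1.42.0, other scalings, no filter, all genes of the table, thinned counts, more groups in the fit, a replicate block, each library left out and, added after the data were seen, a trend on length and GC content. Same-numbered libraries did not deviate together in the dose comparisons (r of deviations -0.262 to 0.117 over 13516 genes), but those of the 2 vehicles did (0.358, 0.163 and 0.259). On data simulated for the high dose of WESF, edgeR recovered 99% of 200 genes changed 2-fold among 13068, with 4.81% of its calls false. In the measured data 68.9% of 13129 genes passed at that dose. The largest change there among the G2/M, spindle and kinetochore genes was 1.88-fold, for MAD2L1. Recovery of changes under 2-fold, and the share of false calls where so many genes pass, were not tested. An exon overlap of 1 member with a neighbouring gene is not reported here.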

Additional observations from a re-analysis of the deposited data

Results flagged for a closer look

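The 16 genes whose change at the high dose differed between the extracts are given with the EESF change minus the WESF change on the log2 scale, from the test of the difference itself. Checkpoint genes were TTK (-0.41), BUB1B (-0.43), BUB1 (-0.36) and MAD2L1 (-0.36). Spindle and chromatin genes were ASPM (-0.55), DLGAP5 (-0.38), ECT2 (-0.37) and TOP2A (-0.31). Kinetochore genes were CENPE (-0.38), CENPF (-0.30) and NUF2 (-0.22), kinesins KIF2C (-0.30) and KIF11 (-0.25), CDK1 switch genes CCNA2 (-0.39) and CDK1 (-0.31), and the passenger gene INCENP (-0.38). ASPM, CENPE and CENPF are the 3 longest transcripts of the 39. After a trend on transcript length and GC content over all genes was taken off, the difference was -0.29 for ASPM, -0.14 for CENPE, -0.080 for CENPF, -0.13 for KIF11, -0.17 for TOP2A and -0.22 for MAD2L1, values with no test, and each of the other 10 genes moved by less than 1.5 times. Extract, dose and batch cannot be told apart. The test took the vehicle libraries of both batches as independent, although same-numbered ones deviated together.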

How the results depend on the processing

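No called gene changed direction under any alternative run, but after the trend on transcript length and GC content 5 of 27 called values with high EESF and 6 of 16 in the difference between the extracts moved by over 1.5 times, and 0 of 31 with high WESF. At the high doses 30 to 33 of the 39 genes were called with WESF (31 in the reported fit) and 25 to 29 with EESF (27), the DEGs were 9 to 10 and 3 to 4, and 15 to 17 differed between the extracts (16). The trend, which has no test, is not among the alternatives behind these counts. Alternatives with a test gave 2686 values for the genes with the largest and smallest change of each role group and CCNB1, CDK1 and PLK1. Of these values 23 lost their call and 17 gained one. FOXM1, PTTG1, TTK, INCENP and the other genes were not in this count. Calls lost were among others that of NUF2 in the difference between the extracts, whose adjusted p reached 0.139 with thinned counts, and that of AURKB at the low dose of EESF (up to 0.183). Calls at the lower doses moved more. With 1 library left out, the count was 0 to 4 at the medium dose of WESF (4 without vehicle A replicate 1), 4 to 8 at the medium dose of EESF (8 without vehicle B replicate 1), and 1 to 9 at the low dose of EESF (9 without vehicle B replicate 1, 1 without vehicle B replicate 2). At that dose it was 2 with all genes of the table and 2 with more groups in the fit, against 4. DEGs in the high-dose difference were 0 to 1 with 1 library left out, against 0, and genes called in the medium-dose difference 0 to 1, with 1 (ASPM) by DESeq2. With the replicate block in the vehicles, whose numbers pair, 1 of the 39 was called against 0, and 478 of all genes against 0. The block changed the count elsewhere by less than 1.5 times, and in the dose comparisons libraries share only a number. The cause of these shifts was not tested. The limits are 3 libraries a group, batches that hold 1 extract each, doses that differ, and depth: the smallest library held 18727797 counts and depth did not overlap between high dose and vehicle.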

Other observations

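In the order of dose, counting the vehicle as the lowest, the group means of 10 of the 39 genes rose at every step with WESF (13.7% of all genes) and those of 12 with EESF (16.95%), with BIRC5, CDC25C, HMMR and UBE2C among both. They fell at every step for 0 genes with WESF (14.25% of all genes) and for 3 with EESF (14.97%), FOXM1, CENPF and SPC25. The highest mean was at the high dose for 33 genes with WESF (44.12% of all genes) and for 32 with EESF (41.74%). In both vehicle groups, replicate 1 had the smallest share of CPM from transcripts of at least 8000 bases, 10.1% with vehicle A and 9.98% with vehicle B, and replicate 3 the largest, 11.2% and 11.1%.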
